A study of Mus musculus with 28 samples.

Results

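The fibroblast growth factor (FGF) genes of the mouse and their close partners were followed across 3 germ layers and 6 endodermal organ domains. The set was chosen by gene symbol alone and holds the FGF ligands, the FGF receptors and their klotho co-receptors, FGF-binding proteins, the adaptors Frs2 and Frs3, the FLRT proteins, the ETS factors Etv1, Etv4 and Etv5, and the feedback inhibitors Spry1 to Spry4, Spred1 to Spred3, Dusp4, Dusp6 and Il17rd. It came to 48 genes on 75 probes, of 16593 named genes on the array; Frs2 was not among them. RNA was amplified and hybridised to Illumina MouseRef-8 bead arrays, 28 in all. The embryos with 4 to 6 somites (E8.25) gave definitive endoderm, ectoderm and mesoderm, with 3 arrays each, and the embryos at E11.5 gave esophagus, lung, stomach, liver and intestine, with 3 arrays each, and pancreas, with 4. Per the design text, an organ sample pooled the dissected domains of 10 to 12 embryos and was sorted for endoderm by flow cytometry. The sources used here do not give strain, genotype or the way ectoderm and mesoderm were isolated, and no treatment is named for any group.

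FGFs are secreted ligands that bind receptor tyrosine kinases together with heparan sulfate and switch on the RAS-MAPK cascade. The cascade raises transcription of the ETS factors Etv4 and Etv5 and of inhibitors such as the Sprouty proteins and the ERK phosphatase Dusp6, which damp the signal again. In the embryo FGFs from heart and other mesoderm pattern the foregut endoderm, and Fgf10 from the mesenchyme drives outgrowth of the lung and pancreatic buds through the epithelial receptor Fgfr2.

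Values are log2 intensities after background correction and quantile normalization. A gene was counted as above background on an array where its probe exceeded the 99th percentile of 1362 probes for sensory receptors, and it was tested if it did so on every array of at least 1 group. Of the 48 genes, 29 met this and 19 did not, and 9651 genes were tested in all. The 19 were Fgf2, Fgf3, Fgf4, Fgf6, Fgf7, Fgf11, Fgf12, Fgf14, Fgf16, Fgf18, Fgf20, Fgf21, Fgf23, Fgfr4, Kl, Etv1, Spred3, Spry1 and Spry2, of which 11 were above background on no array. A difference was called at an adjusted p under 0.05 (limma, Benjamini-Hochberg over all genes tested) and a change of at least 2-fold, which is 1 on the log2 scale. Differences are given as log2 fold change ± SE, and "at least" marks a bound set by background on the dimmer side. Pairs of groups named in the text come from the same fit. Intensities of different probes were not compared. Since a gene had to be above background in a whole group to be tested, a member seen in 1 group only had to differ from the rest.

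Arrays of a group correlated at r = 0.946 to 0.995 across the tested genes, and arrays of different groups at 0.796 to 0.980. Pancreas 3 and intestine 3 had 7083 and 9664 probes above background, against 10843 to 12862 on the others. On 8 arrays, namely all of mesoderm and liver, lung 1 and stomach 1, no deposited intensity exceeded 20000; these are called the dimmer arrays. Organ markers were checked against the labels: 5 of 5 esophagus, 5 of 5 lung, 3 of 4 stomach, 7 of 8 liver, 5 of 7 pancreas and 4 of 5 intestine markers on the array were above background on every array of their own organ. Of the 9 endoderm markers on the array, 8 were so in esophagus, lung, stomach and intestine and 7 in liver and pancreas, where Shh was absent on all arrays, and Sox17 was absent from every organ. Markers also appeared outside their label. Stomach, intestine and E8.25 endoderm had 6 of 8 liver markers above background throughout, and pancreas and lung 5 of 8. Lung had 3 of 4 stomach markers, as many as stomach itself. Lung and stomach had 3 of 5 esophagus markers, and esophagus and E8.25 ectoderm 3 of 5 lung markers. E8.25 ectoderm had 8 of 9 endoderm and 6 of 9 mesoderm markers, next to 6 of 9 ectoderm markers. E8.25 endoderm had 9 of 9 endoderm, 3 of 9 mesoderm and 3 of 9 ectoderm markers. E8.25 mesoderm had 8 of 9 mesoderm, 4 of 9 endoderm and 2 of 9 ectoderm markers. The part of cells of another layer in the layer comparisons was not tested. Mesenchyme markers were above background throughout mesoderm (14 of 17), esophagus (10 of 17) and liver (9 of 17) but 0 of 17 were so in pancreas. In these bulk samples, fewer cells of a type and less RNA per cell cannot be told apart.

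Of the 29 members tested, 28 differed between at least some of the 9 groups by the moderated F-test, all but Spry4 (adjusted p = 0.202). The share over all genes tested was 81.4%. E8.25 endoderm had 23 of the 48 members above background on all its arrays, ectoderm 22 and mesoderm 20. Among the organs the number ran from 20 in esophagus and 18 in stomach to 15 in lung, 14 in liver, 14 in intestine and 9 in pancreas, where pancreas 3 had the highest background threshold of all arrays.

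**Figure D1:**
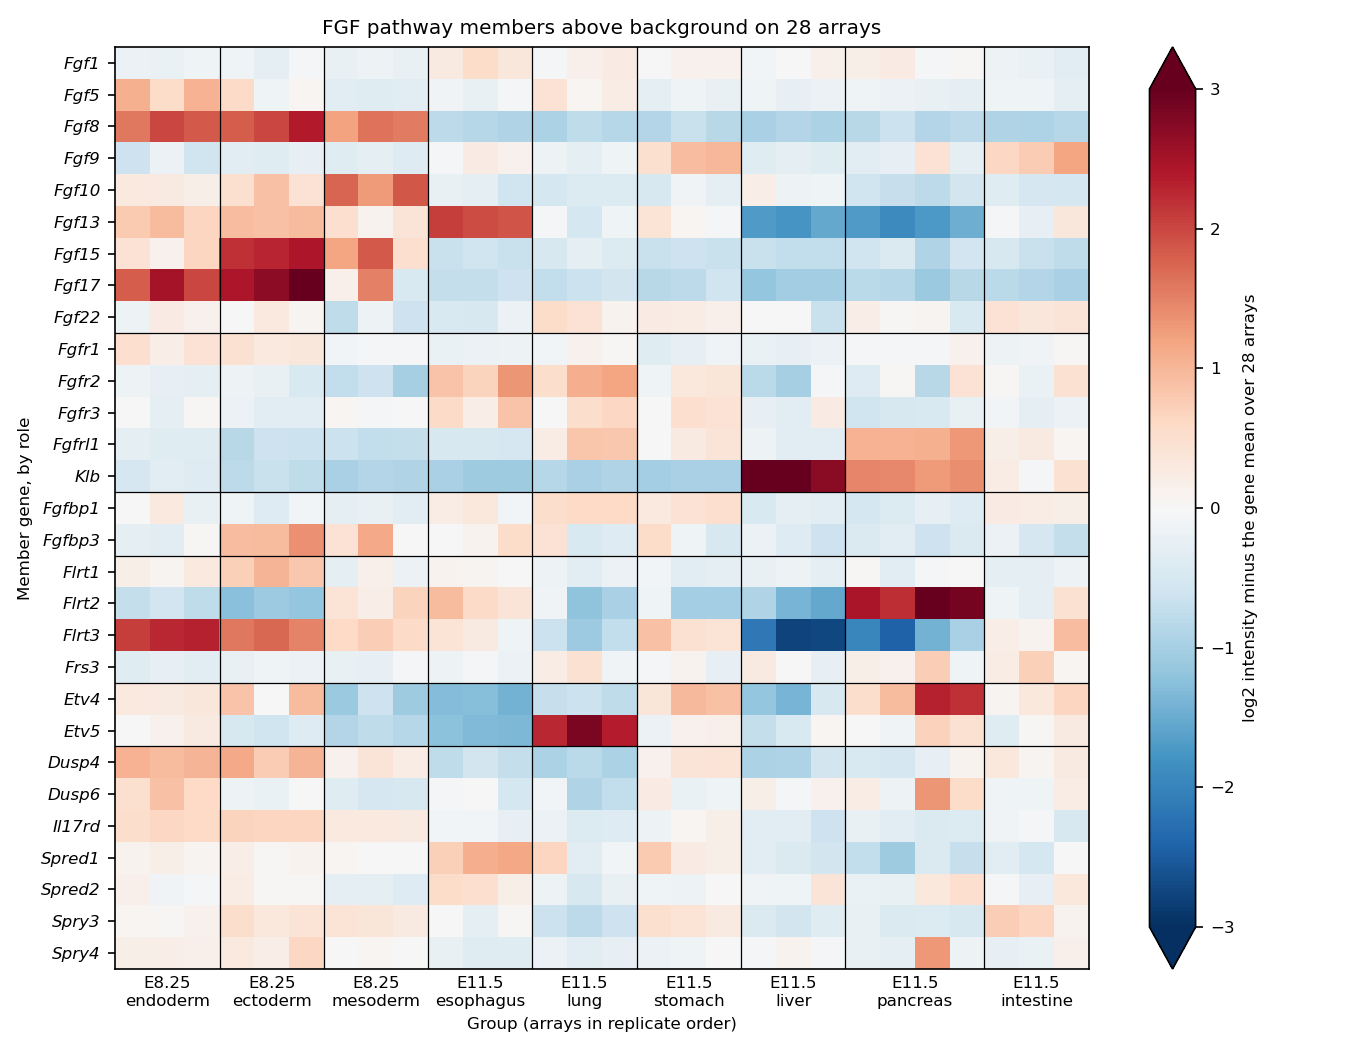
Log2 intensity of the 29 FGF members tested, minus each gene's mean over 28 arrays, with genes in rows by role and arrays in columns by group; red is above and blue below the gene's own mean. Fgf8, Fgf15 and Fgf17 stand out in the E8.25 layers, Etv5 in lung, Klb in liver and pancreas, Flrt2 in pancreas and Fgf13 in esophagus.

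Fgf8, Fgf15 and Fgf17 were bright in the E8.25 layers and near or below background in the organs. Fgf8, a signal of the gastrulating embryo and of several patterning centres, read 8.39, 8.81 and 8.64 in endoderm, 8.62, 8.80 and 9.18 in ectoderm and 8.01, 8.44 and 8.36 in mesoderm. On the 19 organ arrays it lay between 5.83 and 6.16, below background on every one. No layer array overlapped with an organ array. Against E8.25 endoderm, the mean of the organs fell by 2.66 ± 0.10 (at least 4.56-fold, adjusted p = 7.2e-16). Fgf8 was tested through the 3 E8.25 layers only, so this difference was partly set by the filter.

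Fgf17, of the same subfamily as Fgf8, followed a similar course with a lower level in mesoderm. Its intensities were 8.84, 9.51 and 9.03 in endoderm, 9.44, 9.70 and 10.10 in ectoderm and 7.17, 8.52 and 6.57 in mesoderm, against 5.85 to 6.46 in the organs. Mesoderm was the most scattered of the 3 layers and lay below endoderm and ectoderm on every array. The organs were lower than E8.25 endoderm at -2.92 ± 0.21 (adjusted p = 1.4e-10), with Fgf17 above background on all esophagus arrays, on 1 of 3 in lung and in stomach, and on none in the other organs. Endoderm exceeded mesoderm by 1.70 ± 0.28 (adjusted p = 5.8e-05) and ectoderm exceeded mesoderm by 2.33 ± 0.28 (adjusted p = 1.2e-06). A second Fgf17 probe, above background on 6 arrays, gave 0.34 and 0.5 for these, and -0.37 for the organs against E8.25 endoderm.

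Fgf15, the mouse counterpart of human FGF19 and an endocrine FGF of the adult gut, was brightest in ectoderm. It read 7.21, 6.92 and 7.42 in endoderm, 8.97, 9.08 and 9.22 in ectoderm and 7.98, 8.62 and 7.30 in mesoderm. All ectoderm arrays lay above all endoderm and mesoderm arrays, whereas endoderm and mesoderm overlapped. Ectoderm was higher than endoderm, with endoderm minus ectoderm at -1.91 ± 0.20 (adjusted p = 3e-07), and higher than mesoderm by 1.12 ± 0.20 (adjusted p = 0.00016). Without mesoderm 3 the latter was 0.79 and no longer reached 2-fold. In the organs Fgf15 lay between 5.88 and 6.50, including the intestine, where it was below background on every array (6.31, 6.11 and 6.03). The fall from E8.25 endoderm to the organs (-1.01 ± 0.15, adjusted p = 8.8e-06; above background on 2 of 3 lung and 1 of 4 pancreas arrays and on none in the other organs) sat on the 2-fold limit: it was -0.89 without endoderm 3, -0.999 without endoderm 1, -0.988 without pancreas 3 and -0.998 without intestine 3. Fgf15, like Fgf8, was tested through the 3 E8.25 layers only, so this fall was partly set by the filter.

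Fgf10, the mesenchymal ligand of Fgfr2, was brightest in mesoderm, with 8.52, 8.04 and 8.62. Endoderm read 7.05, 7.03 and 6.94 and ectoderm 7.24, 7.64 and 7.19, so that mesoderm did not overlap with either layer. Endoderm minus mesoderm was -1.38 ± 0.15 (adjusted p = 1e-07), and a second Fgf10 probe, above background on 17 arrays, gave -1.51. Ectoderm minus mesoderm was -1.03 ± 0.15 (adjusted p = 9.7e-06) and fell short of 2-fold without any 1 of 4 arrays (-0.977 and -0.948 without ectoderm 1 or 3, -0.969 and -0.918 without mesoderm 1 or 3). In the organs, Fgf10 was above background on all arrays of the liver alone (6.96, 6.62 and 6.63); in the lung and pancreas, whose buds it acts on from the mesenchyme, it was below background on every array. Of the 17 mesenchyme markers, 9 were above background on all liver arrays, with Lum, Col3a1 and Des called higher in liver than in the mean of the other organs and the log2 of the summed intensity at 11.49 to 11.66; their part in the Fgf10 signal was not tested.

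Fgf5, a ligand of the early epiblast and later of the hair follicle, was above background on all arrays of E8.25 endoderm alone (7.20, 6.69 and 7.16). It was tested through that group only, so a higher level there was partly set by the filter. Endoderm exceeded mesoderm, where it was below background throughout (5.80, 5.78 and 5.82), by at least 1.52-fold (1.22 ± 0.14, adjusted p = 4.4e-07). Against ectoderm, with 6.70, 6.01 and 6.19, the difference of 0.72 ± 0.14 passed the test (adjusted p = 0.00098) but not the 2-fold limit.

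Fgf9, which signals between gut or lung epithelium and the mesenchyme, had its highest means in stomach and intestine. It read 7.04, 7.50 and 7.57 in stomach, 7.19, 7.34 and 7.75 in intestine and 6.51, 6.81 and 6.70 in esophagus. In lung it lay between 6.31 and 6.43 and in liver between 6.20 and 6.31. In pancreas it read 6.25, 6.31, 7.004 and 6.30, and the pancreas 3 value was below that array's background. Stomach exceeded liver, where it was below background on every array, by at least 2.01-fold (1.13 ± 0.17, adjusted p = 9.7e-06), and lung minus intestine was -1.05 ± 0.17 (adjusted p = 7.8e-05). Fgf9 was tested through esophagus, stomach and intestine only, so higher levels there were partly set by the filter. Stomach and intestine did not differ beyond their spread (-0.06 ± 0.17). Set against the mean of the other 5 organs, neither was called: stomach was higher by at least 1.63-fold (0.73 ± 0.13, adjusted p = 0.0003) and intestine by at least 1.71-fold (0.80 ± 0.13, adjusted p = 7.9e-05).

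Fgf13, one of the FGF homologous factors, which stay inside the cell and bind sodium channels and microtubules, was brightest in esophagus. It read 10.22, 10.11 and 10.05 there, against 8.09, 7.63 and 8.03 in lung, 8.58, 8.22 and 8.10 in stomach and 8.12, 7.91 and 8.49 in intestine. In liver it was 6.46, 6.39 and 6.63 and in pancreas 6.46, 6.25, 6.44 and 6.70. The organs thus formed 3 steps that did not overlap: esophagus, then lung, stomach and intestine, then liver and pancreas. Esophagus exceeded the mean of the other 5 by 2.66 ± 0.12 (adjusted p = 2e-14) and each organ by 1.83 or more (smallest against stomach, adjusted p = 3.5e-09). Liver and pancreas lay below the mean of the others at -1.70 ± 0.12 (adjusted p = 2.2e-11) and -1.74 ± 0.11 (adjusted p = 5.3e-12). A second Fgf13 probe, above background on 12 arrays, had the same sign but 0.62 for esophagus, -0.30 for liver and -0.34 for pancreas. For intestine it gave -0.27, where the first probe gave 0.31. Its mean in intestine, 6.11, lay by liver (6.08) and pancreas (6.05) and below lung (6.40) and stomach (6.50).

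The E8.25 layers held Fgf13 at 8.253 to 9.12. The organ mean was lower than E8.25 endoderm (-1.04 ± 0.12, adjusted p = 2.1e-07), but esophagus went the other way: endoderm minus esophagus was -1.18 ± 0.16 (adjusted p = 1.9e-06), whereas endoderm exceeded liver by 2.46 ± 0.16. Without endoderm 2 the organ mean differed by -0.954, under 2-fold, and 2 other Fgf13 probes gave 0.09 and 0.11 for this comparison. The remaining ligands varied little. Fgf22 was above background in 8 groups and spanned 0.88 between its highest and lowest group means. Fgf1, an FGF without a secretion signal, was above background on all arrays of esophagus alone (6.45, 6.71 and 6.50), at least 1.14-fold above the mean of the other organs (0.36 ± 0.08, adjusted p = 0.00085). It was tested through esophagus only, so this difference was partly set by the filter.

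**Figure D2:**
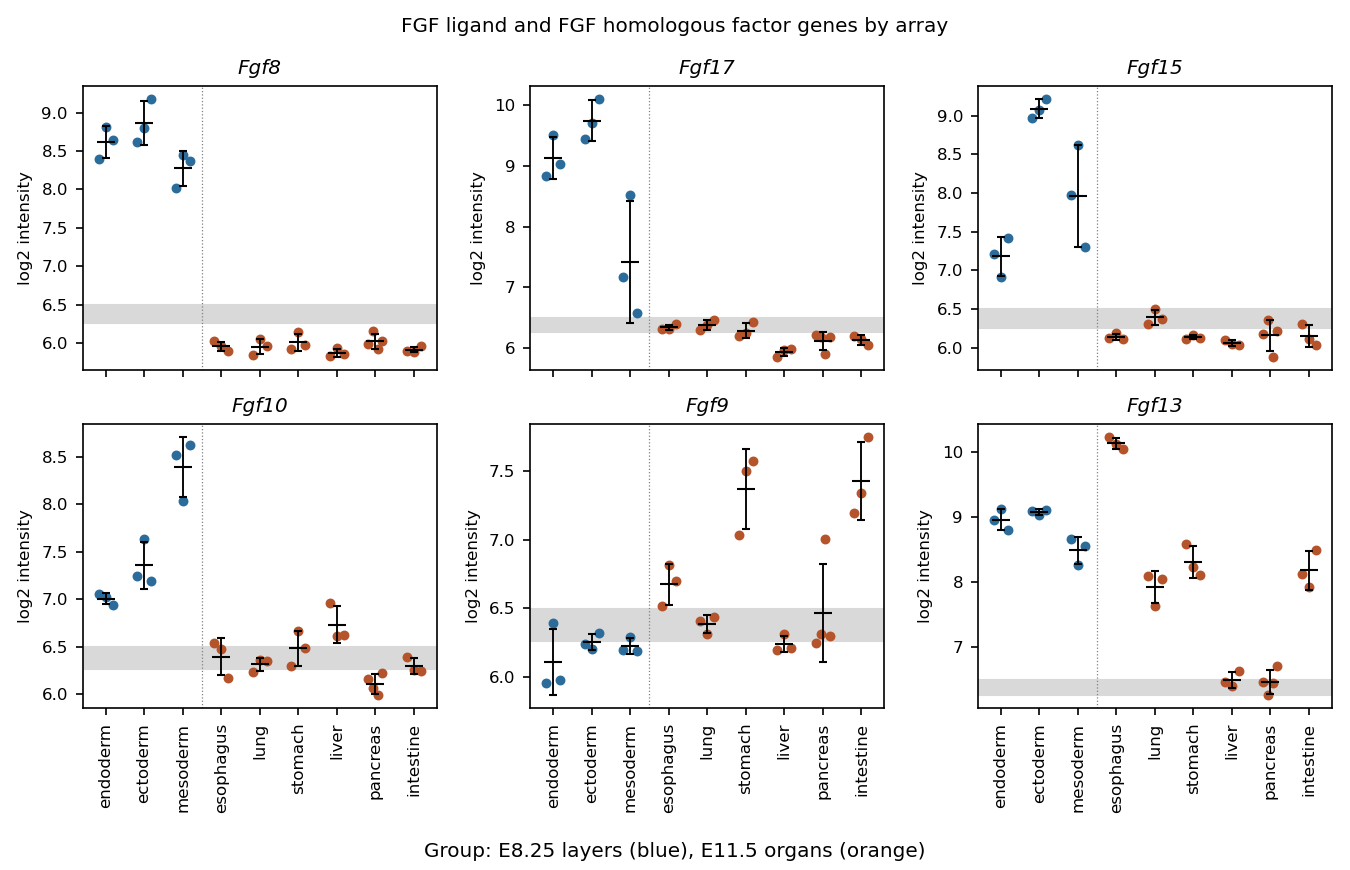
Log2 intensity of 5 FGF ligands and the FGF homologous factor Fgf13 on each array (points; blue E8.25 layers, orange E11.5 organs), with mean and SD as bars; the vertical scale differs between panels. The grey band is the range of the array background thresholds, leaving out pancreas 3 and intestine 3, whose thresholds were higher. Fgf8 lies at 8.01 to 9.18 in the layers and at most at 6.16 in every organ, whereas Fgf13 reaches 10.22 in esophagus.

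Of the kinase receptors tested, Fgfr2 was above background on all arrays of 8 groups, Fgfr3 of 4 and Fgfr1 of 2. Fgfr2, the epithelial receptor for Fgf10, read 8.32, 8.14 and 8.80 in esophagus and 8.01, 8.55 and 8.65 in lung, and these 2 organs did not differ beyond their spread (0.02 ± 0.27). Liver was lowest among the organs with 6.66, 6.49 and 7.40. Esophagus exceeded liver by 1.57 ± 0.27 (adjusted p = 3.5e-05) and lung exceeded liver by 1.55 ± 0.27 (adjusted p = 4.6e-05). Liver minus the mean of the other organs was -1.02 ± 0.21 (adjusted p = 0.00023). That value was close to the limit and lay under 2-fold on leaving out any 1 of 7 arrays: -0.923 and -0.836 without liver 1 or 2, -0.978 without esophagus 3, -0.993 without lung 3, -0.999 without stomach 3, -0.976 without pancreas 4 and -0.987 without intestine 3. With the 8 dimmer arrays as a block it was -0.553 (adjusted p = 0.145). The other Fgfr2 probes, above background on 14 and 8 arrays, gave -0.16 and -0.38, and the average of all probes gave -0.519.

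Fgfr1 passed background on all arrays of endoderm (6.76, 6.44 and 6.68) and ectoderm (6.70, 6.53 and 6.59) and on 1 further array, pancreas 4. Fgfr3 ranged from a mean of 7.11 in esophagus to 6.12 in pancreas. It was 0.56 ± 0.14 above the organ mean in esophagus (adjusted p = 0.0027) and at -0.64 ± 0.12 in pancreas (adjusted p = 0.00026), both under 2-fold. Probes of these receptor genes cannot tell the epithelial from the mesenchymal splice form unless they lie in the alternative exon, and the files do not say where they lie.

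Fgfrl1, a receptor that binds FGFs but has no kinase domain, was brightest in pancreas. It read 8.98, 8.98, 9.02 and 9.25 in pancreas, 8.18, 8.77 and 8.76 in lung and 7.46, 7.46 and 7.45 in esophagus. Pancreas lay above every other organ array, and lung above esophagus. Pancreas exceeded the mean of the others by 1.06 ± 0.09 (adjusted p = 9.7e-10) and liver minus pancreas was -1.38 ± 0.12 (adjusted p = 9.9e-10). With the 8 dimmer arrays as a block these were 0.912 and -0.928, under 2-fold but past the test. Lung exceeded esophagus by 1.11 ± 0.13 (adjusted p = 3.5e-07). The other groups lay lower than pancreas. Stomach read 7.96, 8.23 and 8.32, intestine 8.11, 8.21 and 8.01, and liver 7.80, 7.63 and 7.62. Endoderm read 7.67, 7.59 and 7.58, ectoderm 7.12, 7.32 and 7.31, and mesoderm 7.29, 7.20 and 7.24, so that endoderm lay above the other layers.

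Klb, which encodes beta-klotho, the co-receptor through which the endocrine FGFs FGF15 and FGF21 act on liver and fat, gave the clearest order of organs. Liver read 9.86, 9.95 and 9.59, pancreas 8.35, 8.31, 8.15 and 8.27, and intestine 7.09, 6.82 and 7.34. On the 9 arrays of esophagus, lung and stomach it lay between 5.81 and 6.03, below background on each. The 3 positive organs did not overlap with each other or with the rest. The summed intensity of the 8 liver markers had the same order in these organs. Its log2 was 15.84 to 16.11 in liver, 14.80 to 14.92 in pancreas and 14.15 to 14.53 in intestine. It was 12.79 to 12.94 in stomach and 9.24 to 10.28 in esophagus and lung. Single markers did not all keep this order. Apoa1 was called lower in pancreas and higher in intestine than the mean of the other 5 organs. The median difference of the 7 liver markers tested was 0.753 in pancreas and 1.55 in intestine. The part of liver cells in the Klb values was not tested. Liver exceeded the mean of the other organs by at least 7.57-fold (3.19 ± 0.08, adjusted p = 2.1e-19) and exceeded pancreas by 1.53 ± 0.10 (adjusted p = 8.1e-12). Pancreas exceeded intestine by 1.19 ± 0.10 (adjusted p = 1.9e-09) and the mean of the others by at least 2.12-fold (1.35 ± 0.07, adjusted p = 5.7e-13).

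The other 3 organs were lower than the mean of the rest by at least 2.16-fold in esophagus (adjusted p = 3.6e-13), 1.99-fold in lung (adjusted p = 5.5e-12) and 2.02-fold in stomach (adjusted p = 5.1e-12). E8.25 endoderm held a low Klb signal (6.38, 6.55 and 6.49), above background on all 3 arrays, while ectoderm (6.10, 6.20 and 6.11) and mesoderm (5.91, 6.00 and 5.98) were below it. Endoderm minus liver was -3.33 ± 0.11 (adjusted p = 2.2e-17). The partner receptor Fgfr4 and the other co-receptor gene, Kl, were not tested, and Fgf21, the liver ligand, was above background on 1 array of 28. The Klb promoter window is shown because Klb gave the largest difference of any member between an organ and the mean of the others. It covers 250 bases before to 50 after the start of the gene, taken from RefSeq on GRCm38.p6 (chr5:65348161-65348460, plus strand), 5′ to 3′. It was searched for GGAAG, which is longer than the ETS core GGAA, and for its complement CTTCC, of which it held 0. The shorter GGAA and TTCC, which do occur in the window, were not counted.
Klb: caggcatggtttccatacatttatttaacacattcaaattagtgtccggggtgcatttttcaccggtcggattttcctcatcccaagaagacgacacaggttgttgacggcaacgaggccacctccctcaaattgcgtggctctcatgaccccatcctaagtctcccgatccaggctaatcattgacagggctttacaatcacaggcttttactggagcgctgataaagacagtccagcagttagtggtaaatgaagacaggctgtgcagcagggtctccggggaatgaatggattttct

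Of the carriers that release FGFs from the matrix, Fgfbp3 differed between layers. It read 6.38, 6.33 and 6.68 in endoderm, 7.58, 7.60 and 8.01 in ectoderm and 7.09, 7.78 and 6.65 in mesoderm. All ectoderm arrays lay above all endoderm arrays, and endoderm minus ectoderm was -1.27 ± 0.27 (adjusted p = 0.0019). Averaged with a second probe that was above background on 0 arrays, the difference was -0.729. Fgfbp1 was above background throughout lung (6.80, 6.89 and 6.87) and stomach (6.57, 6.72 and 6.78), and lung was at least 1.26-fold above the mean of the others (0.57 ± 0.09, adjusted p = 6e-05), which was not called. Fgfbp1 was tested through lung and stomach only, so this difference was partly set by the filter.

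The FLRT genes encode transmembrane leucine-rich-repeat proteins that bind FGF receptors and also Unc5 and latrophilin partners, and in Xenopus Flrt3 promotes FGF signalling. Flrt3 had the widest range of group means of all 29 members, 4.76 on the log2 scale. It read 11.88, 12.06 and 12.12 in endoderm, 11.40, 11.53 and 11.30 in ectoderm and 10.42, 10.55 and 10.39 in mesoderm. The 3 layers did not overlap, with endoderm above ectoderm above mesoderm. Endoderm exceeded mesoderm by 1.57 ± 0.27 (adjusted p = 8.9e-05), and ectoderm exceeded mesoderm by 0.96 ± 0.27 (adjusted p = 0.011), under 2-fold.

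At E11.5 Flrt3 was brightest in the gut tube and dimmest in liver and pancreas. It read 10.21, 10.07 and 9.67 in esophagus, 10.68, 10.28 and 10.23 in stomach, 10.00, 9.91 and 10.75 in intestine and 9.18, 8.72 and 9.07 in lung. It read 7.68, 7.02 and 7.09 in liver and 7.85, 7.38, 8.39 and 8.84 in pancreas. Intestine overlapped with esophagus and stomach, and every array of these 3 lay above the other 3 organs. Esophagus minus stomach was -0.41 ± 0.27 (adjusted p = 0.32). The organ mean was lower than E8.25 endoderm (-2.86 ± 0.20, adjusted p = 9.1e-11), and the difference was present against each organ, from 1.62 ± 0.27 for stomach (adjusted p = 4.4e-05) to 4.76 ± 0.27 for liver (adjusted p = 5.2e-13).

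Among the organs, stomach and intestine exceeded the mean of the others by 1.48 ± 0.21 (adjusted p = 1e-05) and 1.27 ± 0.21 (adjusted p = 5.5e-05). Liver and pancreas lay at -2.28 ± 0.21 (adjusted p = 1.9e-09) and -1.26 ± 0.19 (adjusted p = 9.5e-06). A second Flrt3 probe, above background on all 28 arrays, gave -2.86 for the organs against endoderm, 1.38 for stomach, 1.30 for intestine, -2.24 for liver and -1.21 for pancreas. The values of the 2 probes were thus close throughout, and averaged over all Flrt3 probes, including a dimmer one, intestine was at 0.877 and pancreas at -0.99, under 2-fold. The Flrt3 promoter window is shown because Flrt3 had the widest range (chr2:140671427-140671726, minus strand, GRCm38.p6); its 1 match to GGAAG or CTTCC is in capitals.
Flrt3: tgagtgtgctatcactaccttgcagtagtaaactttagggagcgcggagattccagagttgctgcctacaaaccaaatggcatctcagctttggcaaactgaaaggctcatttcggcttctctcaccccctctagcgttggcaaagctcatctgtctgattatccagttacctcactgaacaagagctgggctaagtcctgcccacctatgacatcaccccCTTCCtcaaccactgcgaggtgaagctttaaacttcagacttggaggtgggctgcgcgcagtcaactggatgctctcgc

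Flrt2, unlike Flrt3, was brightest in pancreas. It read 10.32, 10.08, 10.99 and 10.75 in pancreas, 8.81, 8.45 and 8.251 in esophagus and 7.75, 7.57 and 8.34 in intestine. It read 7.77, 6.67 and 6.90 in lung, 7.74, 6.85 and 6.86 in stomach and 6.96, 6.47 and 6.33 in liver. Every pancreas array lay above every other array of the study. Pancreas exceeded the mean of the others by 3.09 ± 0.19 (adjusted p = 5.9e-12), and liver minus pancreas was -3.95 ± 0.26 (adjusted p = 8e-12). Of the 17 mesenchyme markers on the array, 0 were above background on all pancreas arrays, pancreas 3 with its high threshold among them, and the log2 of their summed intensity there was 10.27 to 10.44, the lowest range of the organs. Of the mesoderm markers, Tcf15 alone was called higher in pancreas, by at least 2.85-fold (1.94 ± 0.08, adjusted p = 1.9e-15). It was the 1 of 9 above background on all pancreas arrays. Another 6 of 9 (Foxc2, Hand1, Hand2, Actc1, Myl7 and Mesp1) were above background on none. The part of mesenchyme or mesoderm cells in the Flrt2 value was not tested.

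Liver was lower in Flrt2 than the mean of the others (-1.65 ± 0.22, adjusted p = 6.4e-07). Lung was at -1.02 ± 0.22 (adjusted p = 0.00097), which leaving out any 1 of 6 arrays moved under 2-fold: -0.799 without lung 2, -0.914 without lung 3, -0.988 without esophagus 1, -0.962 without stomach 1, -0.982 without liver 1 and -0.98 without intestine 3. Lung minus esophagus was -1.39 ± 0.28 (adjusted p = 0.00061).

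In the layers, Flrt2 was brightest in mesoderm, with 8.28, 8.08 and 8.55, against 7.16, 7.31 and 7.12 in endoderm and 6.62, 6.77 and 6.71 in ectoderm. The 3 layers did not overlap. Endoderm minus mesoderm was -1.10 ± 0.28 (adjusted p = 0.0037) and ectoderm minus mesoderm -1.60 ± 0.28 (adjusted p = 0.00014). With the 8 dimmer arrays as a block these were -0.175 (adjusted p = 0.731) and -0.673 (adjusted p = 0.13), and without mesoderm 3 the former was -0.978. Flrt1 was above background on all arrays of ectoderm alone (6.87, 7.16 and 6.96), and ectoderm exceeded mesoderm, where it was below background, by at least 1.497-fold (0.94 ± 0.11, adjusted p = 1.2e-06), which was not called. Flrt1 was tested through ectoderm only, so this difference was partly set by the filter. Frs3, which docks signalling proteins to the activated receptor, spanned 0.65 between its group means.

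Etv5, an ETS factor induced by FGF signalling and used as a readout of it in the lung bud tip, set the lung apart. Lung read 10.06, 10.64 and 10.15, stomach 7.63, 7.93 and 7.96, pancreas 7.79, 7.70, 8.504 and 8.26, and intestine 7.44, 7.84 and 8.08. Liver read 7.09, 7.35 and 7.85 and esophagus 6.57, 6.49 and 6.46. Every lung array lay above every other array of the study, and every esophagus array lay below every other organ array. Lung exceeded the mean of the other organs by 2.76 ± 0.16 (adjusted p = 2.7e-12), 6.76-fold, and each organ by 2.22 ± 0.19 (pancreas, adjusted p = 2.2e-09) or more.

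Between the neighbouring foregut domains the gap in Etv5 was the widest: lung exceeded esophagus by 3.78 ± 0.20 (adjusted p = 1.5e-12), and by 3.89 among the 20 brighter arrays alone. Esophagus lay below the mean of the others (-1.77 ± 0.16, adjusted p = 2.6e-09). Pancreas, stomach and intestine did not differ beyond their spread (pancreas minus intestine 0.28 ± 0.19, adjusted p = 0.36). E8.25 endoderm, with 7.82, 7.93 and 8.08, did not differ from stomach beyond the spread (endoderm minus stomach 0.11 ± 0.20, adjusted p = 0.73), while endoderm minus lung was -2.34 ± 0.20 (adjusted p = 3.6e-09). Ectoderm read 7.33, 7.21 and 7.42 and mesoderm 6.92, 7.05 and 6.95. Endoderm exceeded mesoderm by 0.97 ± 0.20 (adjusted p = 0.00071), just under 2-fold.

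Etv4, of the same subfamily, had another order. It read 8.33, 8.73, 10.09 and 9.98 in pancreas, 8.15, 8.75 and 8.68 in stomach and 7.87, 8.11 and 8.44 in intestine. It was 7.09, 7.15 and 7.03 in lung, 6.63, 6.40 and 7.30 in liver and 6.48, 6.51 and 6.37 in esophagus. Pancreas, stomach and intestine all lay above lung, liver and esophagus, and the 4 pancreas arrays fell into a lower and a higher pair. Pancreas exceeded the mean of the others by 1.89 ± 0.24 (adjusted p = 9.3e-07). It did not differ from stomach beyond the spread: stomach minus pancreas was -0.76 ± 0.32 (adjusted p = 0.098).

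Esophagus lay below the mean of the others in Etv4 (-1.51 ± 0.26, adjusted p = 7.9e-05), as did liver (-1.12 ± 0.26, adjusted p = 0.00099), and liver minus pancreas was -2.51 ± 0.32 (adjusted p = 6.9e-07). Without liver 2 the liver value was -0.934, and with the 8 dimmer arrays as a block -0.877 (adjusted p = 0.0887). Lung, the organ brightest in Etv5, was 0.64 above esophagus in Etv4 and the groups did not overlap, but the difference did not pass the test (esophagus minus lung -0.64 ± 0.34, adjusted p = 0.2).

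In the layers Etv4 read 8.08, 8.05 and 8.14 in endoderm, 8.65, 7.78 and 8.75 in ectoderm and 6.67, 7.17 and 6.72 in mesoderm. Mesoderm lay below both. Endoderm exceeded it by 1.24 ± 0.34 (adjusted p = 0.0072) and ectoderm by 1.54 ± 0.34 (adjusted p = 0.0017). With the 8 dimmer arrays, which include all of mesoderm, as a block, the values were 0.955 (adjusted p = 0.171) and 1.26 (adjusted p = 0.0765).

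RefSeq lists 2 promoter windows of Etv5 on GRCm38.p6, both on the minus strand, shown because Etv5 gave the lung difference. The former (chr16:22439521-22439820) held 0 matches to GGAAG or CTTCC and the latter (chr16:22438319-22438618) held 4, in capitals, of which 2 were part of the longer GGAAGT.
Etv5, first window: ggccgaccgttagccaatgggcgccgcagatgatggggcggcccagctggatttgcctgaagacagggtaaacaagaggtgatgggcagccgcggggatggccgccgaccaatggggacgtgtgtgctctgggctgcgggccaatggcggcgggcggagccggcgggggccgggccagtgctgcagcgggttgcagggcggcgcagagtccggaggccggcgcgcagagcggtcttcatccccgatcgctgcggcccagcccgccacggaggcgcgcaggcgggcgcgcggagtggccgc
Etv5, second window: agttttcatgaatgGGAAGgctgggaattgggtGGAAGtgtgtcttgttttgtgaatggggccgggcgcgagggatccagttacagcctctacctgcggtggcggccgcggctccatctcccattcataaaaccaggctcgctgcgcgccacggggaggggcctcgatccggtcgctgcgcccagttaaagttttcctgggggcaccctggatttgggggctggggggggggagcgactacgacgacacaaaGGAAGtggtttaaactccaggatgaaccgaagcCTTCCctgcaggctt
Across all 32851 windows in the table, 71.4% held GGAAG on either strand and 23.8% held GGAAGT, so a match is common. Of the 48 members, 36 had a window, 45 windows in all, of which 68.9% held GGAAG and 13.3% held GGAAGT. These are letters in a window, not measured binding, and the array probes do not say which start was used.

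**Figure D3:**
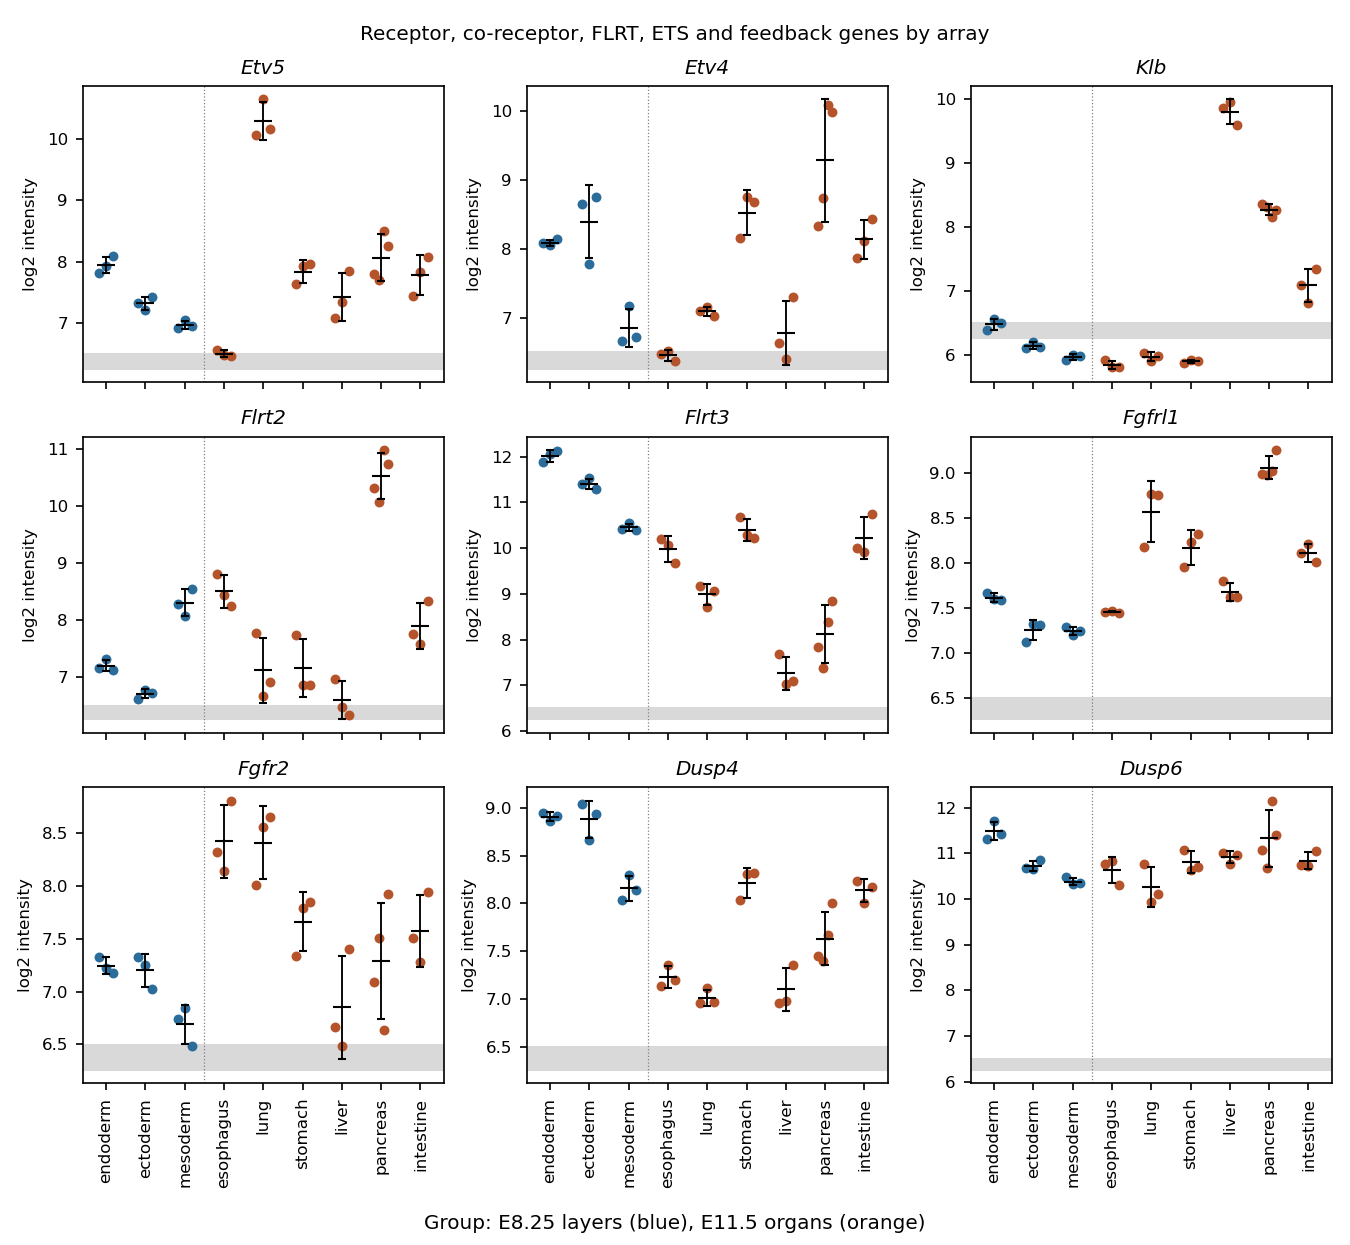
Log2 intensity of 9 receptor, co-receptor, FLRT, ETS and feedback genes on each array (points; blue E8.25 layers, orange E11.5 organs), with mean and SD as bars; the vertical scale differs between panels. The grey band is the range of the array background thresholds, leaving out pancreas 3 and intestine 3. Etv5 exceeds 10 in lung alone, Klb is above background in liver, pancreas, intestine and E8.25 endoderm, and Flrt2 exceeds 10 in pancreas alone.

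Of the feedback inhibitors, Dusp4, Dusp6 and Spred1 were called in 1 comparison each. Dusp6, a cytoplasmic phosphatase of ERK, was bright in all groups. It read 11.32, 11.71 and 11.43 in endoderm and 10.47, 10.33 and 10.35 in mesoderm, without overlap. Endoderm exceeded mesoderm by 1.10 ± 0.25 (adjusted p = 0.0016), but a second probe that was above background on all 28 arrays gave 0.16, and without endoderm 2 the value was 0.994. In lung, where Etv5 peaked, Dusp6 had its lowest mean (10.76, 9.93 and 10.11). Lung was at -0.64 ± 0.19 against the other organs (adjusted p = 0.018), under 2-fold, and lung minus pancreas was -1.06 ± 0.24 (adjusted p = 0.0014). The Dusp6 promoter window is shown for comparison with the Etv5 windows, since both genes are FGF-induced (chr10:99262981-99263280, plus strand, GRCm38.p6); its 2 matches to GGAAG or CTTCC are in capitals.
Dusp6: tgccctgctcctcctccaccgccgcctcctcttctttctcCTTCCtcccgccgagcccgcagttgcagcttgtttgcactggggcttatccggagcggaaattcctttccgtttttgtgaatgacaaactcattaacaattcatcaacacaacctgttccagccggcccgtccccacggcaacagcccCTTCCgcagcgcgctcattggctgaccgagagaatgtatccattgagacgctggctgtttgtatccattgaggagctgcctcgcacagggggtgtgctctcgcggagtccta

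Dusp4, a nuclear MAPK phosphatase, read 8.95, 8.86 and 8.92 in endoderm, 9.04, 8.66 and 8.94 in ectoderm and 8.03, 8.30 and 8.14 in mesoderm. The organ mean was lower than E8.25 endoderm (-1.35 ± 0.11, adjusted p = 6.3e-10), with no overlap between the E8.25 endoderm arrays and any organ array. The organs were not alike in this: endoderm exceeded lung by 1.90 ± 0.14 (adjusted p = 3e-10) but stomach by only 0.69 ± 0.14 (adjusted p = 0.00049), and stomach exceeded liver by 1.12 ± 0.14 (adjusted p = 6.1e-07). A second Dusp4 probe, above background on 21 arrays, gave -0.65 for the organs against endoderm.

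Spred1, which restrains RAF activation, was the one Spry or Spred gene called in any of the 12 comparisons. It read 10.20, 10.58 and 10.65 in esophagus, against 8.42 to 10.27 on all other organ arrays. Esophagus exceeded the mean of the others by 1.19 ± 0.15 (adjusted p = 1.2e-06), and of the other organ arrays only stomach 1, at 10.27, lay above its lowest. Spry3 was above background on all arrays of 6 groups. These were the 3 E8.25 layers, esophagus, stomach (7.37, 7.30 and 7.16) and intestine (7.64, 7.53 and 7.01). Its mean was 7.32 in ectoderm and 7.24 in mesoderm, and it was above background on no lung array (6.26, 6.12 and 6.28). Lung was lower than intestine by at least 2.01-fold (-1.18 ± 0.13, adjusted p = 1.5e-07). Il17rd, the receptor-like inhibitor also named Sef, was at -0.82 ± 0.09 in the organs against E8.25 endoderm (adjusted p = 6.6e-08), under 2-fold. Spred2 spanned 0.74 and Spry4 spanned 0.69 between their group means.

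Counted by comparison, the calls were read against the share of all genes tested. The layer comparisons share their arrays with each other, and so do the organ comparisons. Between endoderm and ectoderm, 0 of 29 members were higher in endoderm by limma (6 at an unadjusted p under 0.05) and 2 were lower (Fgf15 and Fgfbp3), where 1.93% and 0.901% of all genes were. Endoderm against mesoderm gave 5 higher (Dusp6, Etv4, Fgf5, Fgf17 and Flrt3) and 2 lower (Fgf10 and Flrt2), with 3.68% and 4.95% over all genes. Of these members, Fgf5 was tested through endoderm only. Ectoderm against mesoderm gave 3 higher (Etv4, Fgf15 and Fgf17) and 2 lower (Fgf10 and Flrt2), with 2.02% and 3.52%. Mesoderm held 14 of 17 mesenchyme markers and 6 of 7 erythroid markers on all arrays, with the log2 of the summed erythroid intensity at 11.98 to 14.81 against 8.773 to 8.898 in endoderm; their part in these differences was not tested.

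Among the organs, esophagus had 2 members higher (Fgf13 and Spred1) and 3 lower (Etv4, Etv5 and Klb) than the mean of the other 5, with 4% and 2.47% over all genes. Lung had 1 higher (Etv5) and 2 lower (Flrt2 and Klb), with 1.75% and 2.02%. Stomach had 1 higher (Flrt3) and 1 lower (Klb), with 1.51% and 1.19%. Liver had 1 higher (Klb) and 5 lower (Etv4, Fgf13, Fgfr2, Flrt2 and Flrt3), with 6.65% and 6.81%. Pancreas had 4 higher (Etv4, Fgfrl1, Flrt2 and Klb) and 2 lower (Fgf13 and Flrt3), with 2.85% and 1.94%. Intestine had 1 higher (Flrt3) and, by limma, 0 lower (3 at an unadjusted p under 0.05), with 2.73% and 1.08%, so its share was near the background. An organ with a high level pulls the mean of the others up, as liver and pancreas do for Klb, so a lower call need not mark the lowest organ.

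In esophagus the mesenchyme markers were above background for 10 of 17 genes, with the log2 of their summed intensity at 13.14 to 13.38 against 10.27 to 11.66 in the other organs. Col1a2, Postn, Tagln and Tbx4 were below background on all esophagus arrays. In liver, 3 of 5 leukocyte and 5 of 7 erythroid markers were above background on all arrays, and the summed leukocyte intensity, 11.26 to 11.49 in log2, exceeded that of every other organ. In intestine the summed erythroid intensity was 12.78 to 13.96 in log2. The part of such cells in the esophagus, liver and intestine values was not tested.

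For the change in time, 0 members were higher by limma in the mean of the 6 organs than in E8.25 endoderm (7 at an unadjusted p under 0.05) and 6 were lower (Dusp4, Fgf8, Fgf13, Fgf15, Fgf17 and Flrt3), where 3.42% and 3.47% of all genes were. Of the 6 lower members, Fgf8 and Fgf15 were tested through the E8.25 layers only. The median difference of the 29 members was -0.19, against -0.0189 over all genes tested. Stage, dissection and sorting cannot be told apart in this comparison. Lung against esophagus gave 2 higher (Etv5 and Fgfrl1) and 2 lower (Fgf13 and Flrt2), with 2.26% and 3.82% over all genes. Liver against pancreas gave 1 higher (Klb) and 3 lower (Etv4, Fgfrl1 and Flrt2), with 7.04% and 6.8%, a share close to that of all genes.

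**Figure D4:**
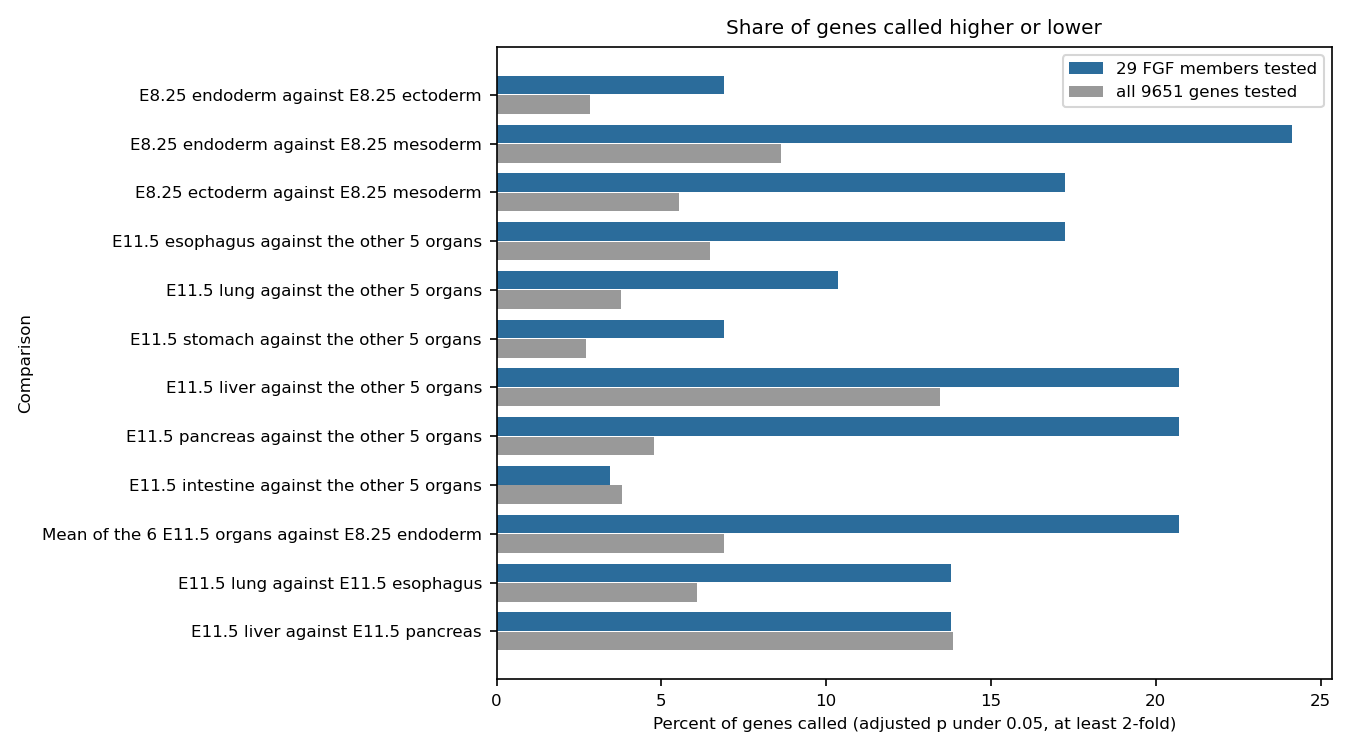
Percent of the 29 FGF members tested (blue) and of all 9651 genes tested (grey) that were called higher or lower in each of the 12 comparisons. The member share is 24.1% for endoderm against mesoderm and 20.7% for liver, for pancreas and for the organs against E8.25 endoderm; each member weighs 3.45%.

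The RAS-MAPK relay carries the signal inward. Of its 17 genes on the array 14 were tested, and calls were made in 5 of the 12 comparisons. In each of these, at most 1 gene was called per direction. Over all genes tested, 2.26% to 7.04% were called per direction in the same comparisons. The p85 subunit gene Pik3r1 was higher in esophagus (1.18 ± 0.17, adjusted p = 3.9e-06), and lung minus esophagus was -1.66 ± 0.21 (adjusted p = 2.1e-06). The docking protein gene Gab1 was lower in liver (-1.06 ± 0.14, adjusted p = 6.7e-07), and liver minus pancreas was -1.16 ± 0.17. Endoderm was higher than mesoderm in the RAS inhibitor Rasa1 (1.02 ± 0.30, adjusted p = 0.01) and lower in the kinase Map2k1 (-1.40 ± 0.46, adjusted p = 0.022), and liver was higher than pancreas in Map2k1 (1.37 ± 0.43, adjusted p = 0.013). Both Map2k1 calls set dimmer arrays against brighter ones. Within lung Map2k1 read 8.62 on the dimmer array 1 against 6.36 and 6.35 on the others. Within stomach it read 8.43 on the dimmer array 1 against 6.64 and 6.45. The part of the array class was not tested.

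Of 12 other genes induced by MAPK signalling, 9 were tested. In lung 1 was higher and 2 were lower: the cyclin gene Ccnd1 was higher (1.09 ± 0.12, adjusted p = 1.8e-07), and Egr1, an immediate early gene, was lower (-1.59 ± 0.55, adjusted p = 0.04), as was Phlda1 (-1.04 ± 0.30, adjusted p = 0.013). In esophagus, where Etv4 and Etv5 were lowest, 3 were higher (Spsb1 at 1.47 ± 0.14, Fos at 1.31 ± 0.48 and Dusp14 at least 1.98-fold) and Phlda1 was lower (-1.13 ± 0.30). In liver 2 were higher and 1 was lower: the galectin gene Lgals3 was higher by at least 5.77-fold (2.72 ± 0.12, adjusted p = 4.7e-15), as was Egr1 (1.72 ± 0.55, adjusted p = 0.011), and Spsb1 was lower (-1.09 ± 0.14). Liver minus pancreas was 2.55 ± 0.15 in Lgals3, 2.08 ± 0.67 in Egr1 and -1.28 ± 0.17 in Spsb1, all called. In intestine Egr1 was higher (1.67 ± 0.55), as was Phlda1 (1.09 ± 0.30), and Ccnd1 was lower (-1.16 ± 0.12). Between lung and esophagus, Ccnd1 was higher in lung (1.64 ± 0.15) and Fos (-1.99 ± 0.63) and Spsb1 (-1.28 ± 0.18) were lower. Over all genes tested, the shares called higher and lower were 1.75% and 2.02% in lung and 4% and 2.47% in esophagus. They were 6.65% and 6.81% in liver and 2.73% and 1.08% in intestine. Liver against pancreas gave 7.04% and 6.8%, and lung against esophagus 2.26% and 3.82%.

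In the layers, Phlda1 was higher in endoderm than in ectoderm by 1.93 ± 0.39 (adjusted p = 0.0013) and than in mesoderm by 1.65 ± 0.39 (adjusted p = 0.0022), and Spsb1 was lower in endoderm than in mesoderm (-1.18 ± 0.18). Over all genes tested, 1.93% were called higher in endoderm than in ectoderm. Against mesoderm, 3.68% were called higher and 4.95% lower in endoderm. From E8.25 endoderm to the organs 2 of the 9 were higher and 1 was lower, where 3.42% and 3.47% of all genes were. Egr1 rose by 1.61 ± 0.54 (adjusted p = 0.019) and Fos by 1.36 ± 0.48 (adjusted p = 0.023), while Phlda1 fell by 1.78 ± 0.30 (adjusted p = 3.7e-05). The median of the 9 was 0.305 in this comparison.

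Genes of heparan sulfate, the sugar that FGFs need to bind their receptors, were tested for 17 of 19 on the array. In esophagus 3 were higher: Sulf1, which removes sulfate groups from it, by 2.92 ± 0.13 (adjusted p = 2e-14), Ext1 by 1.03 ± 0.10 and Hs6st1 by 1.02 ± 0.13. The glypican Gpc1 was higher in lung (1.23 ± 0.17, adjusted p = 8.4e-06) and lower in liver (-2.20 ± 0.17, adjusted p = 1.5e-10) and pancreas (-1.002 ± 0.16, adjusted p = 1.9e-05). Liver and pancreas were also lower in Sulf1, at -1.18 ± 0.13 and -1.11 ± 0.12, and liver in the glypican gene Gpc2 (-1.14 ± 0.23). Liver minus pancreas was -1.001 ± 0.21 in Gpc1, and lung minus esophagus was -2.03 ± 0.17 in Sulf1. Gpc3 was lower in stomach (-1.70 ± 0.11, adjusted p = 5.4e-11). From E8.25 endoderm to the organs Sulf1 was lower (-1.71 ± 0.13) and the syndecan gene Sdc3 higher (1.04 ± 0.15). Endoderm exceeded mesoderm in Hs6st1 (1.05 ± 0.16), and ectoderm lay below mesoderm in the perlecan gene Hspg2 (-1.25 ± 0.37, adjusted p = 0.015). The median of the 17 was 0.39 in esophagus, -0.48 in liver and -0.389 in pancreas, beside -0.0165, -0.0626 and -0.0467 over all genes tested. Over all genes, 4% were called higher in esophagus and 1.75% in lung. Those called lower were 6.81% in liver, 1.94% in pancreas and 1.19% in stomach. In the other comparisons named, 3.42% to 6.8% were called in the same direction as the gene.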

How the data were processed

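Total RNA was isolated with Trizol, amplified and labelled with biotin, per the labels. The deposited intensities of 25697 probes are linear. The submitters' processing notes name BeadStudio, with no version, and the sources used here do not give the normalization or background steps; 7 arrays hold values below 0. From the deposited intensities, normexp without control probes (offset 50), quantile normalization over 28 arrays and log2 were computed; the log2 values are not the authors'. A further deposited table with 112 columns carries array identifiers that no label gives and was not used, so its detection p-values were replaced by the receptor-probe threshold.

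Symbols came from the platform annotation for 23978 probes (1719 had none, 0 several), and 48 of 48 member symbols matched RefSeq gene identifiers. The probe with the highest mean stood for a gene; 6942 symbols were not tested. Each gene was fitted in limma 3.58.1 (R 4.3.3) with 9 group means, 28 arrays, eBayes and no covariate, and the script was tested on simulated data. For a dimmer group below background on every array, folds are bounds against the array's threshold; in a mean over organs, those with only some arrays above background enter at their measured mean. The members, lists and rules were chosen with earlier results of these data known. Values by array are given for members called in at least 3 of 12 comparisons or with the largest change in one, and some others, for the groups compared or as ranges; of the pathway lists, genes called are named, and of the marker lists, some. Replicates are pools of embryos per the design text, and their number limits the precision. The labels do not say that replicate numbers pair samples. Same-numbered arrays deviated together in every pair (r over 0.1) for 7 of 36 pairs of groups. Values were highest for lung and stomach (0.635 to 0.879) and for pancreas and intestine (0.56 to 0.667). Among the others were endoderm and ectoderm (0.325 to 0.37), ectoderm and mesoderm (0.264 to 0.402) and liver and pancreas (0.107 to 0.472). The main fit took arrays of all groups as independent. Alternatives changed the background step, scaling, probe choice, detection threshold, filter, blocks and arrays.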

Additional observations from a re-analysis of the deposited data

Results flagged for a closer look

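On pancreas arrays, the group of 4, 5 of the 29 members had 1 array far from the other 3; chance alone gives about 1 in 20 groups. Spry4 read 7.87 on pancreas 3 against 6.28 to 6.41 on the others, and Fgf9 read 7.0 there against 6.25 to 6.31. Fgf17 read 5.91 on pancreas 3 against 6.18 to 6.22. Pancreas 3 is the array with the highest background threshold (7.48), and of these 3 values only that of Spry4 exceeded it. On pancreas 4, Fgfrl1 read 9.25 against 8.98 to 9.02 and Fgfr1 read 6.37 against 6.18 to 6.21.

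Among the 19 members left untested, 3 were above background on 2 arrays of a group. These were Etv1 in pancreas (2 of 4 arrays), Fgf12 in intestine (2 of 3) and Fgf23 in E8.25 endoderm (2 of 3).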

How the results depend on the processing

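Of the 51 member results called, 30 were called under every alternative run, 21 were not under at least 1, and 0 reversed. Without normexp and with a floor of 16, more members were called: 4 for endoderm against ectoderm, 8 for esophagus, 6 for lung, 6 for stomach, 3 for intestine, 11 for the organs against E8.25 endoderm and 8 for lung against esophagus. All genes called then numbered 521, 1063, 678, 514, 690, 1240 and 939, against 273, 624, 364, 261, 367, 665 and 587. With a normexp offset of 16 the members called were 4 for endoderm against ectoderm, 5 for lung, 5 for stomach and 3 for intestine, and all genes called 443, 558, 418 and 574. Averaging all probes of a symbol left 1 for endoderm against ectoderm and 0 for intestine, with 215 and 292 genes in all. Leaving out each array gave 2 to 2 members for endoderm against ectoderm, 6 to 8 for endoderm against mesoderm, 3 to 7 for ectoderm against mesoderm, 5 to 6 for esophagus, 2 to 4 for lung, 2 to 4 for stomach, 4 to 6 for liver, 6 to 6 for pancreas, 1 to 1 for intestine, 5 to 7 for the organs against endoderm, 4 to 6 for lung against esophagus, 4 to 5 for liver against pancreas and 27 to 29 by the F-test. Of the calls, 9 were lost with the 8 dimmer arrays as a block. As all mesoderm and liver arrays are dimmer, this block cannot show whether calls on those groups depend on array class.

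With the replicate number as a block, the member counts were the same for the 3 paired comparisons (2 for endoderm against ectoderm, 5 for ectoderm against mesoderm, 4 for liver against pancreas) and 28 by the F-test. In comparisons not taken as paired the block gave 6 for esophagus, 3 for stomach, 5 for liver (Fgfr2 at -0.976) and 5 for pancreas (Fgfrl1 at 0.998), and no other count moved. Of 28 arrays, 21 correlated best with their own number in another group. Within the 20 brighter arrays, chosen after seeing the data, 2 members were called for endoderm against ectoderm and 6 for lung against esophagus. Of 36 comparisons of a called result with another probe of the gene, 33 had the same sign. In 17 of the 36 the other probe was above background on at least 14 arrays, and these 17 had the same sign. The rest include probes above background on 0 arrays, and a shared sign does not show a like size. Signal near background limits low members such as Fgf1, Fgf5, Fgfr1 and Flrt1, whose changes are understated by the offset.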
